A study of Mus musculus with 9 samples.

Results

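Cyclic GMP is made in cells by 2 routes, from natriuretic peptides and from nitric oxide, and 8 genes of these routes were followed across dermal cells sorted by CD49f. They encode the natriuretic peptide receptors (Npr1, Npr2 and Npr3), the subunits of the nitric oxide receptor guanylyl cyclase (Gucy1a3 and Gucy1b3), a cGMP-dependent protein kinase (Prkg1) and cGMP-linked phosphodiesterases (Pde5a and Pde3a). They were chosen by symbol, 1 row per gene, from a table of 84809 gene rows, and all 8 passed the filter that left 20523 rows for testing. The cells came from the dermis of newborn mice that carried Krt14 cre and Rosa26-mTmG, which all 3 groups share. Krt14 cre drives recombination in keratin 14-expressing epithelium, and mTmG is a fluorescent reporter of that history. CD49f is the integrin α6 subunit, a laminin receptor at the cell surface. Mesenchymal cells were separated by its level in a cell sorter and lysed directly, without culture. The groups were CD49f-high, CD49f-low and CD49f-neg, with 3 libraries each, numbered 1 to 3. The labels do not say whether the libraries came from separate mice, so p-values reflect only the scatter among these libraries, which may be technical.

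Natriuretic peptides bind cell surface receptors, and in NPR1 and NPR2 the inner part of the receptor is itself a guanylyl cyclase. NPR1 answers atrial and B-type natriuretic peptide, NPR2 answers C-type natriuretic peptide, and NPR3 has no cyclase domain and mainly clears the peptides. Nitric oxide instead binds the haem of a soluble cyclase, a dimer of an α and a β subunit. The cGMP from either route activates the kinase PRKG1, which relaxes smooth muscle. It is broken down by PDE5A, and it inhibits PDE3A, which mainly hydrolyses cAMP. In vessels this pathway is known for the relaxation of smooth muscle and pericytes, and NPR2 is known for its role in growing cartilage.

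Expression was deposited as FPKM, fragments per transcript length and library size, which allows levels to be compared between genes per length. The depth is known only roughly. The spacing of low values, with the most frequent step taken as 1 fragment, put it at 23610000 to 27190000 fragments per library, and 37.5% to 42.7% of those values were whole fragments within 0.02. Itga6, which encodes CD49f, stood at 19.9 ± 4.11 FPKM in CD49f-high, 5.51 ± 0.979 in CD49f-low and 0.475 ± 0.216 in CD49f-neg (SD, n = 3 each). The gates also differed in cell type markers. The summed FPKM of 7 pericyte markers was 516 to 891 in CD49f-high, 47.3 to 88.1 in CD49f-low and 36.9 to 49.7 in CD49f-neg. That of 6 smooth muscle markers was 317 to 641, 53.2 to 93.5 and 11.8 to 17.1 in the same order of gates, and that of 6 fibroblast markers was 2480 to 3880, 3470 to 4120 and 8560 to 10900. Melanocyte markers (5 genes) summed to 5.57 to 13.9, 388 to 481 and 0.449 to 0.859 FPKM. The pericyte markers did not move alike between CD49f-low and CD49f-neg. Means of Rgs5 (10.5 against 0.249 FPKM), Notch3 (13.3 against 3.66), Cspg4 (16.3 against 8.77) and Higd1b (0.184 against 0.0189) were higher in CD49f-low. Those of Pdgfrb (17.8 against 19.9), Kcnj8 (3.37 against 7.23) and Abcc9 (2.21 against 2.5) were lower, and Pdgfrb was the largest part of the CD49f-neg sum. In such bulk samples, fewer cells of a type and less RNA per cell cannot be told apart. All differences below are in log2(FPKM + 1), which understates the change of low genes, and a gene is called at an adjusted p under 0.05 in limma's test over all rows.

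The soluble cyclase subunit genes lie side by side. Both rose, by different amounts, in CD49f-high against either other gate, where Npr2 fell. The bases before the starts of the subunit genes are therefore shown with those of Npr2. Gucy1b3 (chromosome 3, 82032006 to 82074689) and Gucy1a3 (82092427 to 82145789) are both on the minus strand of GRCm38, 17.7 kilobases apart, with no other row of the table annotated between them. The sequences are those of RefSeq on GRCm38.p6, 5′ to 3′, at chr3:82074712-82074961 (minus strand), chr3:82145790-82145900 (minus strand) and chr4:43631685-43631934 (plus strand). The stretches end at the last base before the RefSeq start (Gucy1b3, Npr2) or before the gene's first base in GENCODE M21 (Gucy1a3), and capitals mark matches, on either strand, to the GC box (GGGCGG), the CCAAT box (CCAAT) and the binding site of the Notch effector RBPJ (TGGGAA).
Gucy1b3: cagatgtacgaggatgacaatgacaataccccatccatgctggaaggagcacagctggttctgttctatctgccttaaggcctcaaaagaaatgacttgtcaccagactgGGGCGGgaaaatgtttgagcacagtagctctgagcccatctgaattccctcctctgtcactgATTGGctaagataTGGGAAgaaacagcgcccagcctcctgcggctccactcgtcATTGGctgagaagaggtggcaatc
Gucy1a3: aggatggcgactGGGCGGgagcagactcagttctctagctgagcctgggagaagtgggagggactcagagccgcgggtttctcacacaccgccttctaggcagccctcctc
Npr2: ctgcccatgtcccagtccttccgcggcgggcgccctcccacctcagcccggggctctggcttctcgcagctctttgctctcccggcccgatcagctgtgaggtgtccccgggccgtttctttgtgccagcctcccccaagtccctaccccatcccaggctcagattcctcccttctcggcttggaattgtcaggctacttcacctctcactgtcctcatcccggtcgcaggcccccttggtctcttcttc
The Gucy1b3 stretch held 1 GC box, 2 CCAAT boxes and 1 RBPJ match, the Gucy1a3 stretch held 1 GC box, and the Npr2 stretch held none of them. These stretches differ in length, at 250, 111 and 250 bases. In the 250 bases before a RefSeq start, 5 of the 7 members with an entry held a GC box on either strand, against 35.4% of all 27025 genes. Gucy1a3 and Prkg1 have 2 listed starts each, and for every gene a match before any listed start was counted. Gucy1a3 held no RBPJ match before its start at 82145650, used for the printed stretch, and 3 before its start at 82145073. The printed Gucy1a3 stretch leaves out the bases nearest to the start at 82145650. RBPJ matches were in 5 of 7 members against 24.1% of genes, CCAAT boxes in 4 of 7 against 37.5%, E-boxes (CANNTG) in 5 of 7 against 69.3%, and the cAMP response half-site (TGACG) in 2 of 7 against 19.8%. The last 2 motifs are not marked in the printed stretches. Gucy1b3 held 3 E-boxes and 1 TGACG, and Npr2 held 1 E-box. Npr3, which rose in CD49f-high against CD49f-neg, held no GC box and no RBPJ match. The CArG box, the site of serum response factor, was in 0 of 7 against 1.62%, and TATAAA in 0 of 7 against 14.3%. None of these motifs contains another, except that a CArG box can hold CCAAT or TATAAA. Such matches describe letters in these windows and show no binding. Pde3a had no entry in the table.

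**Figure D1:**
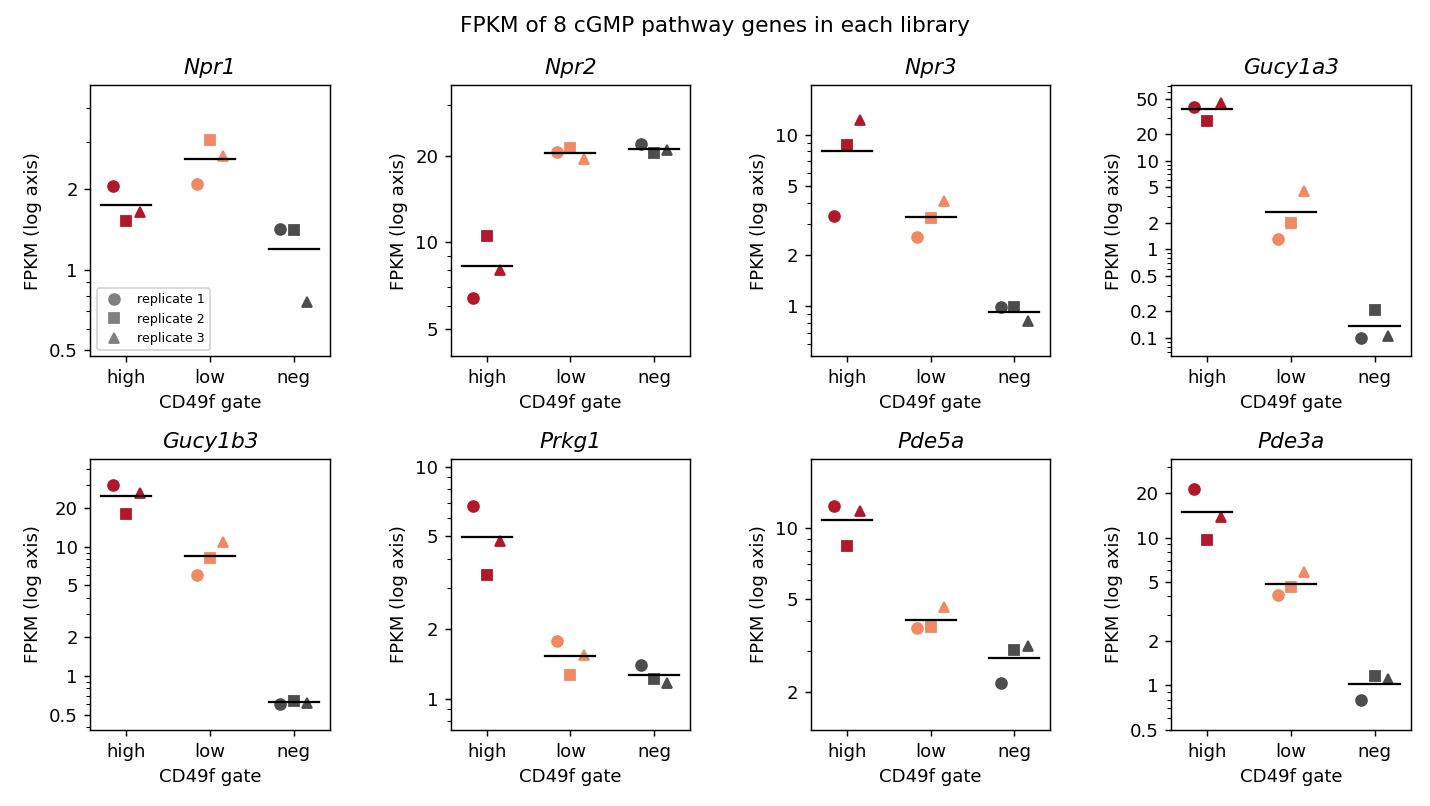
FPKM of each gene in every library, on log axes that differ between panels. Points are libraries, shapes are replicate numbers and lines are means of 3. Gucy1a3 spans 28.2 to 44.5 in CD49f-high against 0.0989 to 0.205 in CD49f-neg, while Npr2 alone is lowest in CD49f-high.

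In CD49f-high against CD49f-neg, 6 of the 8 genes rose, 1 fell and 1 was not called, where 22.1% of all rows were called, 13.9% higher and 8.27% lower. The median difference of the 8 was 1.87 log2 units, beside 0.07 over all rows. The FPKM of the 2 gates did not overlap for any of the 8 genes, as for 36.4% of all rows. Over all rows the calls were 2844 higher and 1697 lower as deposited, 2414 and 2270 once libraries were rescaled by median-of-ratios factors, and 2186 and 2315 under quantile normalization. Of the 8 genes, 6 were called higher and 1 lower under either scaling.

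The α subunit gene Gucy1a3, whose product pairs with the β subunit to form the nitric oxide receptor, had the largest difference of the 8 in CD49f-high against either other gate. It had 40.4, 28.2 and 44.5 FPKM in CD49f-high replicates 1 to 3, 1.31, 1.96 and 4.55 in CD49f-low and 0.0989, 0.205 and 0.106 in CD49f-neg. No 2 gates overlapped. The difference between CD49f-high and CD49f-neg was 5.07 (SE 0.29, limma adjusted p = 5.31e-06), that between CD49f-high and CD49f-low 3.50 (SE 0.29, adjusted p = 7.21e-05), and that between CD49f-low and CD49f-neg 1.57 (SE 0.29, adjusted p = 0.00697). The row of Gucy1a3 also holds the microRNA gene Mir7010, and its values cannot tell them apart. On the opposite strand, 1 other row overlaps the span of Gucy1a3, at up to 2.51 FPKM in a library. Reads shared with that row were not tested.

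Gucy1b3, the haem-binding β subunit gene, had 30.0, 18.0 and 26.2 FPKM in CD49f-high, 6.04, 8.20 and 10.9 in CD49f-low and 0.605, 0.641 and 0.619 in CD49f-neg. Again no gates overlapped. CD49f-high stood above CD49f-neg by 3.96 (SE 0.22, limma adjusted p = 4.70e-06) and above CD49f-low by 1.46 (SE 0.22, adjusted p = 0.00167), and CD49f-low stood above CD49f-neg by 2.50 (SE 0.22, adjusted p = 8.49e-05). As ratios of mean FPKM, CD49f-high exceeded CD49f-low by 2.95-fold for Gucy1b3 and 14.5-fold for Gucy1a3, and CD49f-low exceeded CD49f-neg by 13.5-fold and 19.1-fold.

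The proportion of the subunits was taken within each library. Gucy1a3 over Gucy1b3 was 1.35, 1.57 and 1.70 in CD49f-high, 0.217, 0.239 and 0.416 in CD49f-low and 0.164, 0.321 and 0.171 in CD49f-neg. CD49f-high lay above both other gates, which overlapped (exact two-sided permutation p = 0.5 for CD49f-low against CD49f-neg, adjusted p = 0.536). Another α subunit gene, Gucy1a2, averaged 10.2 ± 2.41 FPKM in CD49f-high, 1.49 ± 0.331 in CD49f-low and 1.68 ± 0.291 in CD49f-neg (SD, n = 3 each). Both α genes together stood at 1.96 ± 0.276 times Gucy1b3 in CD49f-high, 0.471 ± 0.0957 times in CD49f-low and 2.92 ± 0.456 times in CD49f-neg (SD, n = 3 each). The β transcript thus exceeded the α transcripts in every CD49f-low library and in no library of the other gates. Gucy1a2 was the more abundant α gene in all 3 CD49f-neg libraries, and Gucy1a3 in all 3 CD49f-high ones. With 3 libraries against 3, the exact two-sided permutation test of a ratio cannot go below p = 0.1. The summed α ratio gave that smallest p in each of the 3 comparisons, and Gucy1a3 over Gucy1b3 gave it for CD49f-high against either other gate, with 0.115 after Benjamini-Hochberg adjustment over the 15 tests of ratios and shares.

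**Figure D2:**
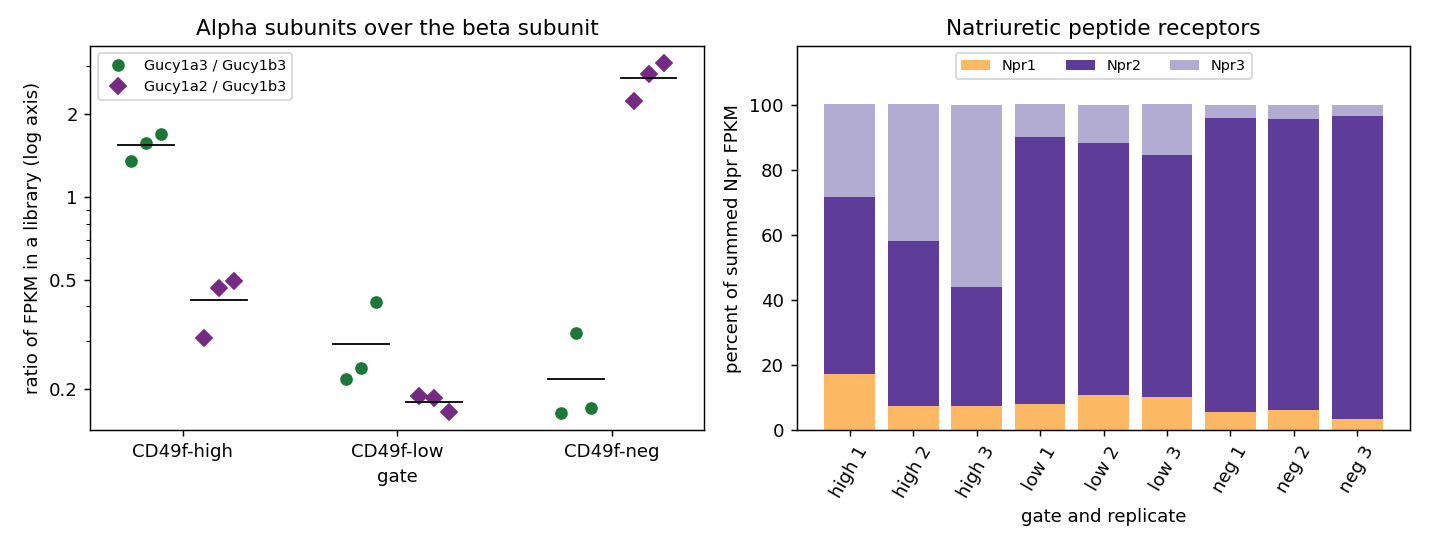
Left, FPKM of each α subunit gene over that of Gucy1b3 in each library (log axis), with lines at the means of 3. Right, each natriuretic peptide receptor as a percent of the summed FPKM of the 3, with 1 bar per library. Npr2 holds 36.6% to 54.3% in CD49f-high and 89.5% to 93.0% in CD49f-neg.

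The natriuretic receptor genes did not move as a family. Npr2 (chromosome 4, 43631935 to 43651244), the receptor of C-type natriuretic peptide, had 6.41, 10.5 and 8.0 FPKM in CD49f-high, 20.6, 21.4 and 19.6 in CD49f-low and 22.1, 20.5 and 21.0 in CD49f-neg. CD49f-high lay below both other gates, which overlapped with each other. Npr2 fell by 1.28 (SE 0.15, limma adjusted p = 0.000266) in CD49f-high against CD49f-neg and by 1.23 (SE 0.15, adjusted p = 0.000517) against CD49f-low. Between CD49f-low and CD49f-neg the difference was -0.05 (adjusted p = 0.852, 95% interval -0.38 to 0.29). The row of Npr2 also covers the predicted gene Gm25262.

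Npr3 (chromosome 15, 11839896 to 11905674), the clearance receptor gene, had 3.35, 8.69 and 12.2 FPKM in CD49f-high, 2.54, 3.29 and 4.09 in CD49f-low and 0.986, 0.991 and 0.816 in CD49f-neg. Both CD49f-positive gates lay above CD49f-neg, and they overlapped with each other. The difference between CD49f-high and CD49f-neg was 2.09 (SE 0.34, limma adjusted p = 0.00186). Between CD49f-low and CD49f-neg it was 1.14 (adjusted p = 0.0511), which passed with the replicate number as a block (adjusted p = 0.0244), with a pseudocount of 0.1 (0.0220) and without replicate 1 (0.00275) or replicate 3 (0.0262) of CD49f-high. Between CD49f-high and CD49f-low it was 0.95 (adjusted p = 0.0921), which passed with the block (adjusted p = 0.0445) and, at 1.41, without CD49f-high replicate 1 (0.00204). Over the span of Npr3 lies 1 other row, at up to 1.08 FPKM in a library.

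Npr1 (chromosome 3, 90450591 to 90465866), the receptor gene of atrial natriuretic peptide, was low in all gates. It had 2.05, 1.52 and 1.64 FPKM in CD49f-high, 2.08, 3.05 and 2.65 in CD49f-low and 1.42, 1.40 and 0.759 in CD49f-neg. Its means were highest in CD49f-low, and no 2 gates overlapped. Only CD49f-low against CD49f-neg was called, at 0.72 (SE 0.17, limma adjusted p = 0.0201). That call ended with median-of-ratios factors (adjusted p = 0.0745), under quantile normalization (0.0895) and without CD49f-neg replicate 3 (0.0735), CD49f-low replicate 2 (0.0866) or CD49f-low replicate 3 (0.0770). CD49f-high differed from CD49f-neg by 0.33 (adjusted p = 0.201, 95% interval -0.04 to 0.70) and from CD49f-low by -0.39 (adjusted p = 0.148, 95% interval -0.76 to -0.02).

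Summed over the 3 receptor genes, the level was 18.1 ± 5.52 FPKM in CD49f-high, 26.4 ± 1.26 in CD49f-low and 23.3 ± 1.06 in CD49f-neg (SD, n = 3 each). Npr2 made up 47.2% ± 9.39 of that sum in CD49f-high, 77.7% ± 3.70 in CD49f-low and 90.9% ± 1.85 in CD49f-neg. Npr3 made up 42.1% ± 13.8, 12.5% ± 2.80 and 3.99% ± 0.359 in the same order. In CD49f-high replicate 3 the clearance receptor exceeded Npr2, at 55.9% against 36.6% of the sum. The gates did not overlap for either share, and each of the 6 exact two-sided permutation tests gave the smallest p possible, 0.1 (adjusted p = 0.115).

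Prkg1 (chromosome 19, 30567551 to 31765033), a kinase gene of the cGMP signal, had 6.76, 3.41 and 4.79 FPKM in CD49f-high, 1.77, 1.27 and 1.55 in CD49f-low and 1.40, 1.21 and 1.17 in CD49f-neg. CD49f-high lay above both other gates, which overlapped. The difference was 1.37 (SE 0.19, limma adjusted p = 0.000733) from CD49f-neg and 1.21 (SE 0.19, adjusted p = 0.00225) from CD49f-low. CD49f-low differed from CD49f-neg by 0.16 (adjusted p = 0.579), which turned to -0.03 with median-of-ratios factors and to -0.08 under quantile normalization. The Prkg1 gene is long, its row also covers 2 noncoding RNAs, and 33 other rows of the table lie over its span, 8 of them on the opposite strand. Which of these share reads with it was not tested. Prkg2, the gene of another cGMP-dependent kinase, stayed under the filter. It averaged 0.238 ± 0.0833 FPKM in CD49f-high, 1.06 ± 0.24 in CD49f-low and 0.306 ± 0.172 in CD49f-neg.

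Pde5a (chromosome 3, 122728947 to 122859374), whose enzyme breaks down cGMP, had 12.4, 8.36 and 11.9 FPKM in CD49f-high, 3.74, 3.78 and 4.59 in CD49f-low and 2.19, 3.01 and 3.14 in CD49f-neg. No gates overlapped. CD49f-high stood above CD49f-neg by 1.65 (SE 0.17, limma adjusted p = 0.000111) and above CD49f-low by 1.23 (SE 0.17, adjusted p = 0.000982). The difference of 0.42 between CD49f-low and CD49f-neg did not pass (adjusted p = 0.115). On the opposite strand, 4 other rows overlap the span of Pde5a, at up to 0.27 FPKM in a library.

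Pde3a (chromosome 6, 141249269 to 141507448), whose enzyme is inhibited by cGMP, had 21.4, 9.70 and 13.7 FPKM in CD49f-high, 4.1, 4.66 and 5.86 in CD49f-low and 0.796, 1.16 and 1.11 in CD49f-neg. Each gate lay apart from the others. It rose in each comparison, by 2.91 (SE 0.24, limma adjusted p = 3.30e-05) in CD49f-high against CD49f-neg, by 1.38 (SE 0.24, adjusted p = 0.00397) in CD49f-high against CD49f-low and by 1.53 (SE 0.24, adjusted p = 0.00285) in CD49f-low against CD49f-neg. Its row also covers a noncoding RNA, and 5 other rows overlap its span, at up to 12.4 FPKM in a library. Reads shared with these rows were not tested. The ratio of Pde3a to Pde5a was 1.34 ± 0.334 in CD49f-high, 1.2 ± 0.0946 in CD49f-low and 0.368 ± 0.0172 in CD49f-neg (SD, n = 3 each). Both CD49f-positive gates lay above CD49f-neg in that ratio and overlapped with each other (exact two-sided permutation p = 0.8 for CD49f-high against CD49f-low).

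**Figure D3:**
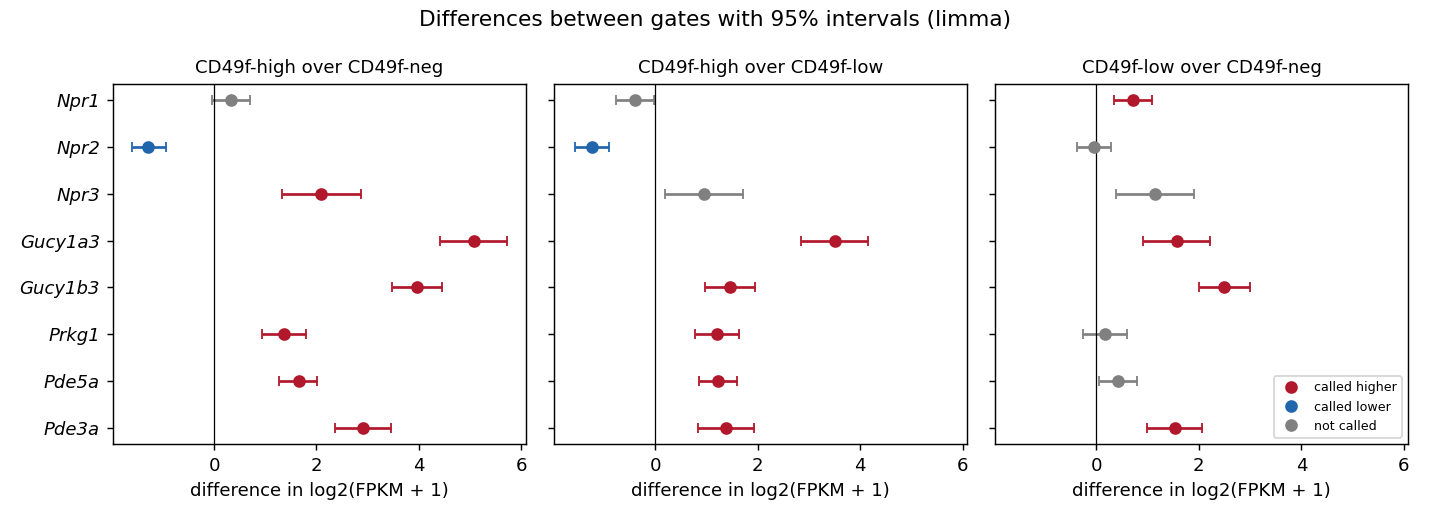
Differences between gates in log2(FPKM + 1) for each gene, with 95% intervals from limma (9 libraries). Red points were called higher, blue lower and grey not called. Npr2 is the 1 gene called lower, at -1.28 in CD49f-high against CD49f-neg and -1.23 in CD49f-high against CD49f-low.

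In CD49f-high against CD49f-low, 5 of the 8 genes rose and 1 fell, where 16.4% of all rows were called, 5.93% higher and 10.5% lower. The median difference of the 8 was 1.22, beside -0.15 over all rows. The FPKM did not overlap for 7 of the 8 (37.2% of all rows), Npr3 being the exception. The calls over all rows were 1216 higher and 2151 lower, 1684 and 1238 with median-of-ratios factors and 1577 and 1431 under quantile normalization. In CD49f-low against CD49f-neg, 4 of the 8 rose (Npr1, Gucy1a3, Gucy1b3 and Pde3a) and none fell, where 15.4% of all rows were called, 12.8% higher and 2.62% lower. Here the median of the 8 was 0.93, beside 0.21 over all rows, so small differences are read against that shift. The FPKM did not overlap for 6 of the 8 (40.5% of all rows), with Npr2 and Prkg1 as the exceptions. The calls over all rows were 2623 higher and 537 lower, 1033 and 1231 with median-of-ratios factors and 1040 and 1004 under quantile normalization. With 3 comparisons over 3 gates, each pair of comparisons shares 3 libraries.

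The order of libraries within a gate was set beside the markers of mural cells, the contractile cells around vessels, and of Schwann cells. In CD49f-high, 6 of the 8 genes were lowest in replicate 2, as were 28.4% of all rows tested. This was the library with the lowest pericyte sum (891, 516 and 732 FPKM in replicates 1 to 3) and the lowest smooth muscle sum (641, 317 and 352). In CD49f-low, 5 of the 8 were highest in replicate 3 (34.3% of all rows), where the pericyte sum was 88.1 FPKM against 47.3 and 55.4 in replicates 1 and 2. Replicate deviations were shared over the whole table, so these counts are not read as a trait of the 8. The other 2 genes, Npr2 and Npr3, were lowest in CD49f-high replicate 1 (31.9% of all rows). In that library the sum of 6 fibroblast markers was lowest, at 2480 FPKM against 3880 and 3750 in replicates 2 and 3, and so was that of 6 Schwann cell markers, at 26.2 FPKM against 133 and 156. Of the 6 fibroblast markers, Lox was not lowest there, at 36.6, 36.9 and 27.0 FPKM in replicates 1 to 3. The Schwann sum was 35.0 to 46.1 in CD49f-low and 0.486 to 0.731 in CD49f-neg. No marker of the pericyte, smooth muscle or Schwann list was at 0 in all libraries of a gate. The part of these cell types in the differences was not tested. The sum of 6 endothelial markers was low, at 8.54 to 15.1 FPKM in CD49f-high, 6.14 to 6.42 in CD49f-low and 1.74 to 3.51 in CD49f-neg. Its 3 tested members did not move alike. Cdh5, an endothelial cadherin gene, was called higher in CD49f-high (4.0 to 7.56 FPKM) than in CD49f-neg (0 to 0.189 FPKM, limma adjusted p = 4.30e-05). Kdr, a VEGF receptor gene, averaged 1.49 ± 0.529 FPKM in CD49f-high, 3.62 ± 0.517 in CD49f-low and 0.690 ± 0.126 in CD49f-neg. It was called lower in CD49f-high than in CD49f-low (limma adjusted p = 0.00612) and not called between CD49f-high and CD49f-neg (0.0512). Tek, an angiopoietin receptor gene, was not called in any comparison and differed by 0.20 between CD49f-high and CD49f-neg (adjusted p = 0.597). The untested members had their highest means in CD49f-high, as Cdh5 did. In CD49f-high, CD49f-low and CD49f-neg, Tie1 averaged 1.59, 0.176 and 0.0147 FPKM, Pecam1 0.953, 0.351 and 0.215, and Emcn 0.167, 0.0198 and 0.00282.

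**Figure D4:**
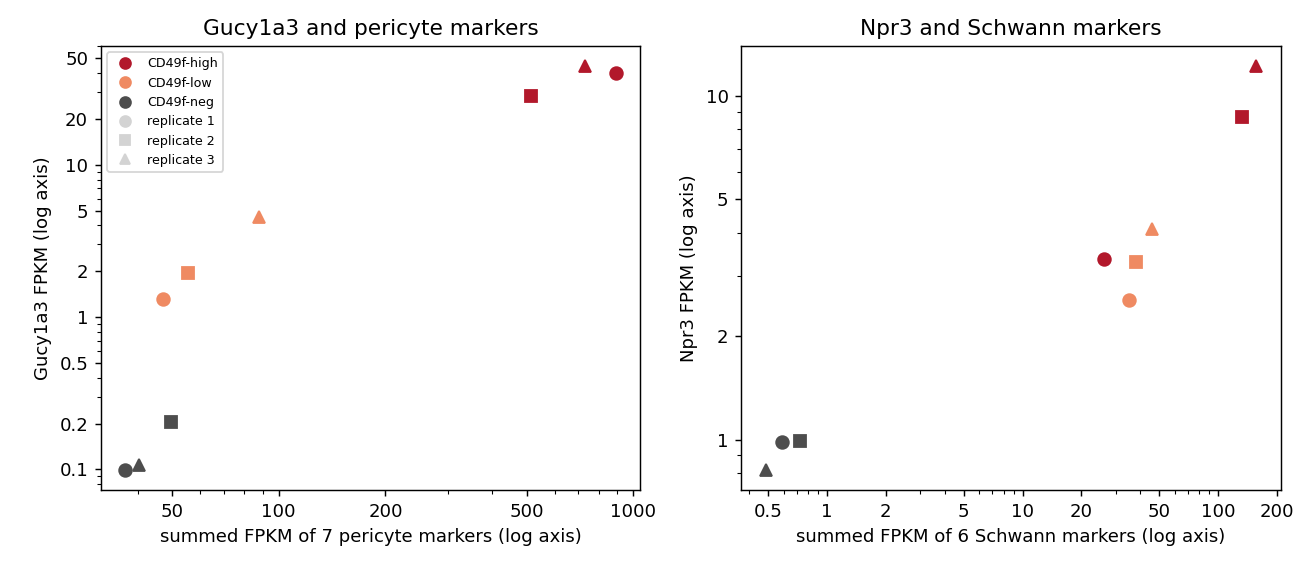
Left, Gucy1a3 against the summed FPKM of 7 pericyte markers, and right, Npr3 against that of 6 Schwann cell markers, on log axes. Each point is 1 of 9 libraries, coloured by gate and shaped by replicate number. In CD49f-high replicate 1, Npr3 (3.35 FPKM) and the Schwann sum (26.2 FPKM) both lie near the CD49f-low libraries.

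The genes with the most similar profile over the 9 libraries were found among 5531 genes with a mean of at least 5 FPKM in some gate. Likeness was the root mean square difference of log2(FPKM + 1) after each gene's own mean was removed, so a small value means a similar profile. For Gucy1a3 the nearest were Notch3, a Notch receptor of mural cells, at 0.174, and Epas1, a hypoxia-inducible factor gene, at 0.236, where Gucy1a3 itself ranged over 5.37 log2 units. Notch3 is also 1 of the 7 pericyte markers. The likeness depends on the pseudocount of 1, as Gucy1a3 averaged 0.137 FPKM in CD49f-neg and Notch3 3.66. As ratios of mean FPKM, CD49f-high exceeded CD49f-neg by 276-fold for Gucy1a3 and 43.2-fold for Notch3. For Gucy1b3 the nearest were Itga6 at 0.369 and Actg2, a smooth muscle actin gene, at 0.388. For Pde3a they were Rbm24, an RNA-binding protein gene of muscle, at 0.250, and Ryr2, a calcium release channel gene, at 0.258. For Npr3 they were Gfra1, a GDNF receptor gene, at 0.196, and Sdc3, a syndecan gene, at 0.242. Npr2 was nearest to Rasl11b, a Ras-like GTPase gene, at 0.144, and Cpxm1, a carboxypeptidase-like gene, at 0.147. For Prkg1, Pde5a and Npr1, which ranged less widely, the nearest were Prkar1a, a regulatory subunit gene of the cAMP-dependent kinase (0.0899), Mrip-ps (0.130) and the sodium pump subunit gene Atp1b3 (0.111), and then Oaz2-ps (0.132), the proteasome subunit gene Psmb10 (0.148) and the nuclear export gene Nxt1 (0.115). Mrip-ps and Oaz2-ps are named as pseudogenes, whose reads can be shared with near-identical copies. Among the 8 themselves the most alike were Prkg1 and Pde5a, at 0.224, and the least alike Npr2 and Gucy1a3, at 2.73.

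The rest of the pathway was described by 46 further genes, of which 26 passed the filter. The filter can be met by 1 gate alone, so genes low in every gate dropped out and these counts describe the genes tested. In CD49f-high against CD49f-neg, 9 of the 26 rose and 4 fell (22.1% of all rows called), with a median of 0.03 beside 0.07 over all rows. Without CD49f-high replicate 2 or replicate 3, the count of 13 calls dropped to 8 in each case. In CD49f-high against CD49f-low, 8 rose and 5 fell (16.4% of all rows), 9 and 3 with median-of-ratios factors, with 7 calls in all without CD49f-high replicate 3. In CD49f-low against CD49f-neg, 2 rose and 1 fell (15.4% of all rows). That last count was 1 higher and 4 lower with median-of-ratios factors, 1 and 2 under quantile normalization, and 6 higher and 1 lower with the replicate block.

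The genes of the signals themselves were low. The nitric oxide synthase genes stayed under the filter, and Nos1 was at 0 in each CD49f-neg library. Nos2 reached at most 0.123 FPKM in CD49f-high, 0.0919 in CD49f-low and 0.00676 in CD49f-neg. Nos3, the endothelial synthase gene, had 0.373, 0.103 and 0.208 FPKM in CD49f-high, 0.0437, 0.0327 and 0.0192 in CD49f-low and 0.0144, 0.0139 and 0.00887 in CD49f-neg. Nppa, the gene of atrial natriuretic peptide, was listed at 0 in all libraries but 1, at 0.0332 FPKM in CD49f-neg replicate 2. Nppb, the gene of B-type natriuretic peptide, had 0.338, 2.03 and 0.551 FPKM in CD49f-high, 0.745, 1.10 and 0.751 in CD49f-low and 0.305, 0.0367 and 0 in CD49f-neg, and also stayed under the filter. Nppc, the gene of the peptide that activates NPR2, averaged 1.15 ± 0.525 FPKM in CD49f-high, 2.60 ± 0.848 in CD49f-low and 2.50 ± 0.263 in CD49f-neg, and also fell in CD49f-high (by 0.73 against CD49f-neg, limma adjusted p = 0.0375, and by 0.75 against CD49f-low, adjusted p = 0.0431). Mme, the gene of neprilysin, which degrades natriuretic peptides, averaged 0.943 ± 0.316, 3.37 ± 1.14 and 4.03 ± 0.512 FPKM in the same order and fell by 1.38 in CD49f-high against CD49f-neg (adjusted p = 0.00100). Corin, the protease that activates pro-atrial natriuretic peptide and also a marker of the dermal papilla, had 2.83, 2.68 and 0.763 FPKM in CD49f-high, 12.5, 21.0 and 19.4 in CD49f-low and 0.296, 0.404 and 0.418 in CD49f-neg. It was highest in CD49f-low, above CD49f-neg by 3.73 (SE 0.29, limma adjusted p = 4.95e-05), and CD49f-high lay 2.64 below CD49f-low (log2 difference -2.64, adjusted p = 0.000317). The sum of 5 dermal papilla markers, Corin not among them, was 8.53 to 13.9 FPKM in CD49f-high, 53.0 to 70.2 in CD49f-low and 18.4 to 24.3 in CD49f-neg. Trps1 made up most of that sum in CD49f-neg, at 17.8 ± 3.83 FPKM against 2.35 ± 0.668 in CD49f-high, whereas in CD49f-high the means of Alpl, Sox2, Notum and Bmp3 exceeded those in CD49f-neg, as for Corin. All 5 were called lower in CD49f-high than in CD49f-low by limma, and 4 of 5 were called higher in CD49f-low than in CD49f-neg, Trps1 being the exception. The part of dermal papilla cells in the Corin difference was not tested.

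**Figure D5:**
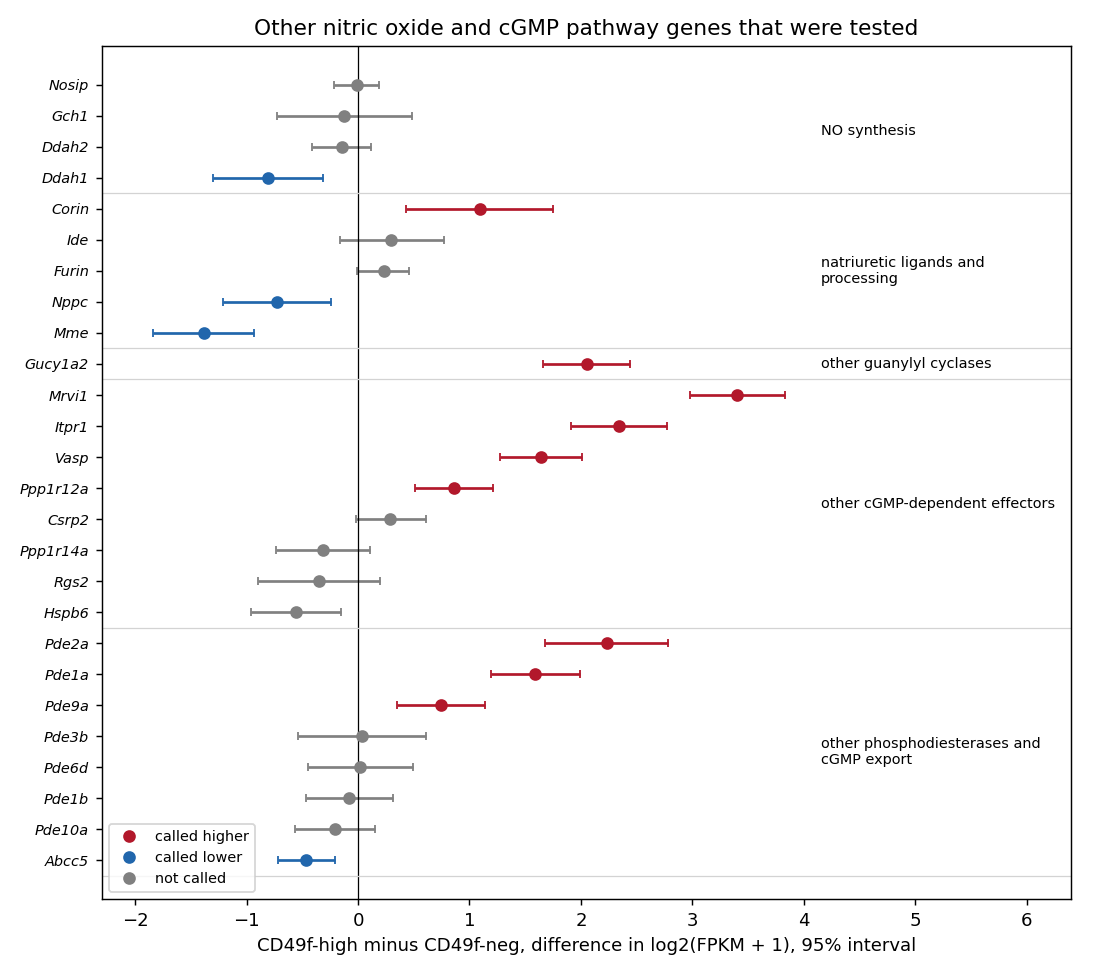
Differences of the 26 further genes that were tested, CD49f-high minus CD49f-neg, in log2(FPKM + 1) with 95% intervals, grouped by role. Red points were called higher (9 genes), blue lower (4) and grey not called (13). Mrvi1 lies farthest to the right, at 3.40.

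Downstream of the kinase, 4 of 8 tested effector genes rose in CD49f-high against CD49f-neg and none fell, where 13.9% of all rows were called higher and 8.27% lower, and their median difference was 0.58 beside 0.07 over all rows. Mrvi1, whose product IRAG is phosphorylated by PRKG1 at the calcium store, had 11.2, 8.46 and 11.9 FPKM in CD49f-high, 0.213, 0.347 and 0.948 in CD49f-low and 0.0626, 0.0687 and 0.105 in CD49f-neg. It passed the filter through CD49f-high alone, so it could enter the 8 tested effector genes only by its level there. No gates overlapped, and CD49f-high stood above CD49f-neg by 3.40 (SE 0.19, limma adjusted p = 4.84e-06) and above CD49f-low by 2.95 (SE 0.19, adjusted p = 2.39e-05). Itpr1, the calcium channel gene whose product IRAG binds, averaged 14.4 ± 3.73, 4.1 ± 0.920 and 2.00 ± 0.349 FPKM in CD49f-high, CD49f-low and CD49f-neg and rose by 2.34 in CD49f-high against CD49f-neg (adjusted p = 3.21e-05). Vasp, an actin regulator gene and kinase substrate, averaged 24.8 ± 3.33 FPKM in CD49f-high and 7.34 ± 1.57 in CD49f-neg and rose by 1.64 (adjusted p = 0.000105). Ppp1r14a, the gene of the myosin phosphatase inhibitor CPI-17, was instead lowest in CD49f-low, with 13.2 ± 2.51 FPKM in CD49f-high, 4.96 ± 1.14 in CD49f-low and 16.7 ± 2.82 in CD49f-neg (limma adjusted p = 0.00167 for CD49f-high against CD49f-low and 0.000555 for CD49f-low against CD49f-neg).

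Gucy1a2 rose in CD49f-high by 2.05 (SE 0.17, limma adjusted p = 3.83e-05) against CD49f-neg and by 2.16 (SE 0.17, adjusted p = 6.55e-05) against CD49f-low, and differed by -0.11 (adjusted p = 0.684) between CD49f-low and CD49f-neg. Of the other phosphodiesterase and export genes, 3 of 8 rose and 1 fell in CD49f-high against CD49f-neg (13.9% and 8.27% of all rows), and their median of 0.03 lay beside 0.07 over all rows. Pde1a, among those that rose, passed the filter through CD49f-high alone. It had 1.53 to 3.22 FPKM there and at most 0.367 in CD49f-low and 0.0786 in CD49f-neg. Pde2a, the gene of a cGMP-stimulated phosphodiesterase, had 22.8, 13.8 and 16.4 FPKM in CD49f-high, 3.16, 2.79 and 4.41 in CD49f-low and 1.83, 3.26 and 3.91 in CD49f-neg. CD49f-high lay above both other gates, by 2.23 (SE 0.24, limma adjusted p = 0.000175) against CD49f-neg and 2.05 (SE 0.24, adjusted p = 0.000447) against CD49f-low. The sum of 10 phosphodiesterase genes was 55.8 ± 15.5 FPKM in CD49f-high, 23.8 ± 3.16 in CD49f-low and 16.0 ± 1.99 in CD49f-neg (SD, n = 3 each). Pde5a held 19.9% ± 2.74, 17% ± 0.909 and 17.3% ± 1.58 of it in that order, Pde3a held 26.1% ± 3.21, 20.5% ± 2.39 and 6.38% ± 0.814, and Pde2a 31.7% ± 0.970, 14.4% ± 1.59 and 18.4% ± 4.67. Pde3b, a close relative of Pde3a, was not called in any comparison, at 3.62 ± 2.09, 3.24 ± 0.400 and 3.24 ± 0.409 FPKM (limma adjusted p = 0.946 for CD49f-high against CD49f-neg, 95% interval -0.54 to 0.61). Of the genes of nitric oxide synthesis and its control, Ddah1, which degrades a natural inhibitor of the synthases, fell by 0.81 in CD49f-high against CD49f-neg (adjusted p = 0.0262), and its relative Ddah2 averaged 38.7 ± 4.66, 37.5 ± 1.80 and 42.7 ± 3.42 FPKM.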

How the data were processed

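RNA from 9 libraries, 3 per CD49f gate, was measured as FPKM. The submitters' processing notes name FastQC, TopHat2, StringTie and the build GRCm38, while versions, order and filters are not given in the sources used here. The authors deposited 1 FPKM column per library, with unpooled replicates. The gate in each title set its group. The deposited FPKM were analysed as log2(FPKM + 1) over rows with at least 1 FPKM in at least 3 libraries. The test was that of limma 3.58.1 (R 4.3.3), a model of group means with trend and 6 residual degrees of freedom, with Benjamini-Hochberg adjustment over all 20523 rows. The step was tested on simulated data. Ratios and shares within a library were compared by exact two-sided permutation tests.

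Same-numbered libraries of different gates deviated together from their gate means (correlations 0.252 to 0.520 in 9 pairs, against -0.453 to 0.118 in 18 pairs of different numbers). Deviations from a gate mean cancel within the gate, so the lower range follows in part from the higher one and is not separate support. Same-numbered libraries thus deviated alike, while the labels give no source for a pairing. The main fit and the permutation tests treated the libraries as unpaired. The number entered as a block among the alternatives. These were a pseudocount of 0.1, no filter, a filter at 5 FPKM, both scalings, the block and leaving out each library.

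The 8 genes, the lists and the tests were chosen with earlier results of these data known. The text names the 8 genes and, per comparison, the 5 called pathway genes with the smallest adjusted p or, for a sub-list with no call, its most abundant gene. It also names Itga6 and, per gene, the 2 nearest profiles. Nos1, Nos2, Nos3, Nppa, Nppb, Nppc, Mme, Ddah1, Pde1a, Pde3b, Prkg2, Rgs2 and Hspb6 were named after their values were seen. So were the pericyte, fibroblast, endothelial and dermal papilla markers. The labels do not say whether counting used strand, so genes that overlap another are uncertain. Tables were handled in Python 3.11.15 with pandas 2.3.3, numpy 2.4.6 and scipy 1.17.1, and figures drawn with matplotlib 3.10.9.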

Additional observations from a re-analysis of the deposited data

How the results depend on the processing

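Of 351 recomputed differences of the 8 genes, 338 kept their direction and their side of the threshold, 5 lost a call (all Npr1, CD49f-low against CD49f-neg), 6 gained one (all Npr3) and 2 changed sign (Prkg1, CD49f-low against CD49f-neg, to -0.03 with median-of-ratios factors and -0.08 under quantile normalization). Npr1, Npr3 and Prkg1 did not pass the filter at 5 FPKM and have no value there. The number of the 8 genes called stayed within 1.5 times its value under each alternative, at 3 to 5 in CD49f-low against CD49f-neg, 7 in CD49f-high against CD49f-neg and 6 to 7 in CD49f-high against CD49f-low when each library was left out. Over all rows, the calls in CD49f-low against CD49f-neg were 3160, and 1358 with the stricter filter (fewer rows tested), 2044 after quantile normalization, 5806 with the replicate block and 1342 to 3760 with each library left out. In CD49f-high against CD49f-neg they were 4541, 1911 with the stricter filter and 3008 to 4455 with each library left out, and in CD49f-high against CD49f-low 3367, 1323 with the stricter filter, 5309 with the replicate block and 1869 to 3593. Of the further pathway genes, 3 were called in CD49f-low against CD49f-neg, but 6 with a pseudocount of 0.1, 5 after median-of-ratios scaling, 7 with the replicate block and 2 to 3 with each library left out. The calls of 13 in both other comparisons dropped to 8 with the stricter filter, and ranged over 8 to 13 (CD49f-high against CD49f-neg) and 7 to 13 (CD49f-high against CD49f-low) with each library left out. The block changed no call of the 8 genes other than those of Npr3. The cause of these shifts was not tested, except that the stricter filter tests fewer rows. FPKM under about 0.1 rest on few fragments, which limits Gucy1a3 and Mrvi1 in CD49f-neg.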
